A study of Mus musculus with 6 samples.

Results

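The genes described here encode the keratin-associated proteins of the hair shaft. They were taken as every probe of a whole mouse genome array whose accession led to a RefSeq symbol beginning with Krtap, together with Prr9 and S100a3. The rule found 32 probes for 30 genes, of 16398 named genes on the array. Of the 30 genes, 28 were Krtap genes from 14 subfamilies by number, and 28 of the 30 gave a signal strong enough to be tested. Krtap19-2 and Krtap19-5 did not. The RefSeq table holds 58 symbols that meet the rule, so the named probes covered a part of the family. Of 41174 probes, 18156 had no name and could not be searched for the rest.

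A hair shaft is built from filaments of hair keratins embedded in a matrix of keratin-associated proteins, which cross-link the filaments through disulfide bonds. The matrix proteins fall into a high-sulfur, an ultra-high-sulfur and a high glycine-tyrosine class, and their genes lie in clusters on a few chromosomes. They are made late, by cells that leave the hair matrix and differentiate into cortex and cuticle of the shaft, during the growth phase of the hair cycle called anagen. In the resting phase, telogen, no new shaft is made. S100a3 is a cysteine-rich calcium-binding protein of the hair cuticle, and Prr9 is a small proline-rich protein encoded within the epidermal differentiation complex. Cyclosporin A is an inhibitor of the phosphatase calcineurin, used to suppress T cells, and excess hair growth is a known effect of the drug.

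Each of 6 arrays compared back skin of C57/BL mice given cyclosporin A, labelled with Cy5, with back skin given ethanol, labelled with Cy3, and there were 2 arrays for each of days 2, 4 and 7 after treatment. Strain, tissue and collection day were shared by the skins on an array. The labels give neither the age and sex of the mice nor their hair cycle phase, nor whether an RNA came from 1 animal or several, and p-values measure only the spread between these samples. Ratios are given as log2 of cyclosporin A over ethanol, so that 1 is a 2-fold higher signal in cyclosporin A skin, and a gene was called where limma's moderated test gave a Benjamini-Hochberg adjusted p under 0.05 over all 22746 genes and unnamed probes tested.

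The median signal of an array was 134.5 to 187 for cyclosporin A skin and 203 to 277 for ethanol skin, and the share of probes that stood well above background was 59.9% to 68.8% for cyclosporin A skin and 43.5% to 56.5% for ethanol skin. The arrays of days 2 and 4 shared a slide and those of day 7 lay on another, so slide and day 7 cannot be told apart. The dyes were not swapped, so within a day the effect of the dye on a gene and that of the treatment cannot be told apart. In array correlations over all genes, the ratios of the day 2 replicates had r = 0.008, those of day 4 had r = 0.426 and those of day 7 had r = 0.589. The 6 tested markers of epidermis, among them Krt5, Krt14 and Krt10, were measured on every array, with a summed signal between 349000 and 613000 in cyclosporin A skin and between 337000 and 631000 in ethanol skin.

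The promoters of the family were read for short motifs. In RefSeq promoters of 250 bases before to 50 bases after the start (assembly GRCm38.p6), 28 of the 30 genes were found. The letters TATAAA, the core of a TATA box, stood on either strand in the promoters of 21 of 28 (75.0%), against 15.7% of 27025 genes. On the gene's own strand, beginning 40 to 20 bases before the start, they stood in 13 of 28 (46.4%), against 2.41% of all genes. The letters CTTTGA or CTTTGT, the core of the site bound by Lef1, stood on either strand in 19 of 28 (67.9%), against 34.5% of all genes. Neighbouring members of a cluster are related copies, so these promoters are not independent, and a match is a description of letters only. The 120 bases just before the start are shown for the gene of the rule with the largest day 7 ratio, for genes of different subfamilies that were higher at day 7, and for 2 genes that did not pass, Krtap13 and Krtap3-2. They were chosen after their values were seen. All 8 genes lie on the minus strand, the sequences run 5′ to 3′ along the gene, and TATAAA is in capitals. They are Prr9 at chr3:92123948-92124067, Krtap5-1 at chr7:142297135-142297254, Krtap4-16 at chr11:99851606-99851725, Krtap1-5 at chr11:99581017-99581136, Krtap6-5 at chr16:89047900-89048019, Krtap16-3 at chr16:88962874-88962993, Krtap13 at chr16:88751629-88751748 and Krtap3-2 at chr11:99556854-99556973.
Prr9: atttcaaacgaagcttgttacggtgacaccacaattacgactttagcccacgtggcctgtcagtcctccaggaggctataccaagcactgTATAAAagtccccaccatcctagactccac
Krtap5-1: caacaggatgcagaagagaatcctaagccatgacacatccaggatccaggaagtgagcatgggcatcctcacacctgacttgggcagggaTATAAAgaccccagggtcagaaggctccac
Krtap4-16: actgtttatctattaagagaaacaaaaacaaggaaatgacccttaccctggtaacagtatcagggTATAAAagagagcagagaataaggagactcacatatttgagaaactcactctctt
Krtap1-5: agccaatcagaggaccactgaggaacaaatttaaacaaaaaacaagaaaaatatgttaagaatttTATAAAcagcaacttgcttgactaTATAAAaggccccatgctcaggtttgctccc
Krtap6-5: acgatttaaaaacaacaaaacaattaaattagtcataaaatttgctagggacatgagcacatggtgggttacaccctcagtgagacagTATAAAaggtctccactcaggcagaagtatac
Krtap16-3: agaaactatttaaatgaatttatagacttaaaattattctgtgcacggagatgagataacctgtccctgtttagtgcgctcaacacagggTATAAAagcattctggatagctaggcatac
Krtap13: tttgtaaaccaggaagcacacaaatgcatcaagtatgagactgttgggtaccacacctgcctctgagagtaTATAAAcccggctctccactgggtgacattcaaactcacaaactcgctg
Krtap3-2: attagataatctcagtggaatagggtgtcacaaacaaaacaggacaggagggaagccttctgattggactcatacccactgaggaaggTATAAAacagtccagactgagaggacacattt

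TATAAA began 30 bases before the start in Prr9, Krtap5-1 and Krtap16-3, 55 bases before it in Krtap4-16, 32 bases before it in Krtap6-5, and 31 and 55 bases before it in Krtap1-5. It began 32 bases before the start in Krtap3-2 and 49 bases before it in Krtap13, the pair of genes shown that were not called higher at day 7. The promoters with and without TATAAA in the narrow window therefore held genes of both outcomes.

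At days 2 and 4 the ratios of the keratin-associated protein genes, normalized by loess, lay close to 0. At day 2 their mean ratios ran between -0.18 and 0.21 with a median of 0.02, against a median of 0.04 over all genes, and 0 of 28 were called by limma (0% of all genes were called, and 0 of 28 had an unadjusted p under 0.05). At day 4 the means ran between -0.24 and 0.45 with a median of 0.04, against 0.04 over all genes, and 0 of 28 were called by limma, against 0.0044% of all genes. At day 4, 1 of 28 had an unadjusted p under 0.05 in limma, Krtap9-1. Of all 22746 genes, 2202 had such a p at day 2 and 3403 at day 4. With each array centred on its median in place of loess, Krtap19-1 and Krtap9-1 were called at day 2 and Krtap19-1, Krtap3-2, Krtap9-1 and S100a3 at day 4, where 38.3% and 24.5% of all genes were called. Under that centring the median of the 28 genes was below 0 on both days, against 0.391 and 0.269 over all genes. On the scanner software's processed signals it was also below 0 on both days, so closeness to 0 depended on the normalization. The ratio at day 4 minus that at day 2 was called by limma for 0 of 28, against 0% of all genes. For this difference 0 of 28 had an unadjusted p under 0.05, against 510 of 22746 genes.

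At day 7, 20 of the 28 tested genes were higher in cyclosporin A skin and 0 were lower, against 2.35% of all genes called higher and 0.642% called lower. Their median ratio was 1.98, against 0.03 over all genes, and 27 of 28 were above 0, as were 54.1% of all genes. The scanner software's own ratios gave a median of 3.85 for the same 28 genes. In both replicates at day 7, 25 of 28 genes had a ratio above all 4 earlier arrays, a pattern held by 9.19% of all genes. Krtap13, Krtap19-1 and Krtap3-2 did not have it. All of these passed the filter on dim probes without the cyclosporin A channel of day 7. The 15 genes that passed only through that channel all had the pattern, and this route itself selects for a bright day 7 signal. The share of all genes with the pattern was not split by route. Of the 22746 ratios at day 7, 10 of the 50 highest and 18 of the 100 highest belonged to these genes, with Prr9 at rank 9, Krtap5-4 at rank 15, Krtap5-1 at rank 21 and S100a3 at rank 23. These ranks and counts take each ratio as measured, including those of genes whose ethanol signal was not well above background. For such genes the size of a ratio is uncertain.

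The filter on dim probes bears on these counts. Of the 28 tested genes, 15 passed it only through the cyclosporin A channel of day 7 and so could be tested only where that channel was bright, and 10 of the 15 were called higher, against 25.7% of all genes that passed only in this way. The other 13 passed without that channel, and 10 of the 13 were called higher, against 2.19% of all genes that passed in this way. With no filter, 19 of all 30 genes were called higher, against 1.49% of all genes, 29 of 30 were above 0 and the median was 1.97. Of the 2 untested genes, Krtap19-2 had day 7 ratios of 1.43 and 0.19, and Krtap19-5 had 0.14 and -0.14. The arrays compare bulk tissue, in which more cells of the hair shaft and more RNA per such cell cannot be told apart. Probe sequences were not used here, and binding of closely related Krtap transcripts to a probe was not tested.

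**Figure D1:**
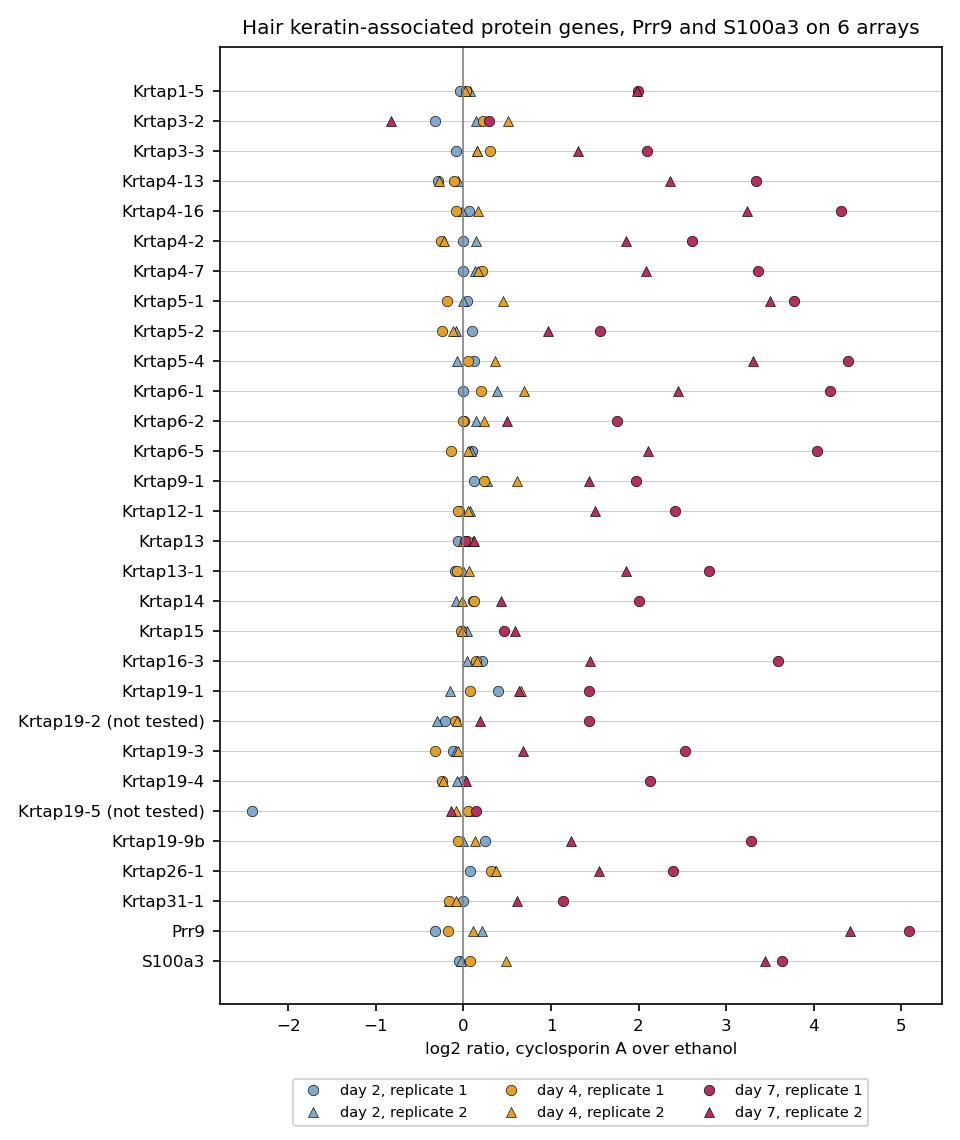
Log2 ratio of cyclosporin A over ethanol skin (horizontal axis) of the 30 genes (1 line each, by subfamily number), with a point for each of the 6 arrays. The ratios of days 2 and 4 gather near 0, apart from Krtap19-5 at -2.41 on day 2 replicate 1, while those of day 7 lie to the right for most genes and reach 5.09 in Prr9.

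Prr9 and S100a3, the genes outside the Krtap family, stood among the highest ratios at day 7. Prr9 had ratios of 5.09 and 4.41 on the day 7 arrays, against -0.33, 0.21, -0.18 and 0.11 on those of days 2 and 4. Both day 7 values stood far above the 4 earlier ones, which fell on either side of 0. Its mean ratio at day 7 was 4.75 ± 0.21 (SE, n = 2), a 26.9-fold higher signal (limma adjusted p = 0.00016). In log2 signal it reached 13.41 and 12.09 in cyclosporin A skin at day 7, against 8.32 and 7.69 in ethanol skin, where it was well above background on 1 of the 2 arrays. S100a3 had ratios of 3.64 and 3.44 at day 7, against -0.05 and -0.03 at day 2 and 0.08 and 0.49 at day 4. The replicates of day 7 differed by 0.20, the smallest gap after Krtap1-5 among the genes called. Its mean was 3.54 ± 0.14 (SE, n = 2), or 11.6-fold (limma adjusted p = 9.53e-05), the smallest adjusted p of the 28 genes.

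The ultra-high-sulfur class, whose very high cysteine content gives many disulfide bonds, was represented by subfamilies Krtap4, Krtap5 and Krtap9. All 8 tested genes of the class were called higher at day 7, with a median ratio of 2.79 and a range from 1.26 to 3.85. Krtap5 genes, which lie on chromosome 7 and whose human relatives are made in the hair cuticle, had a median of 3.63. Krtap5-4 had ratios of 4.39 and 3.31 at day 7, against 0.12 and -0.07 at day 2 and 0.05 and 0.36 at day 4, a mean of 3.85 ± 0.24 (SE, n = 2; 14.4-fold, limma adjusted p = 0.00085). Krtap5-1 was close to it, with 3.77 and 3.50 at day 7 and a mean of 3.63 ± 0.17 (12.4-fold, limma adjusted p = 0.000223). Krtap5-2 had the lowest ratios of the subfamily, 1.56 and 0.97 at day 7, against values from -0.24 to 0.10 before. Its ethanol signal was not well above background on either array of day 7, and the signal was at least 2.40-fold higher in cyclosporin A skin (limma adjusted p = 0.0169). A fold written as at least sets the cyclosporin A signal against the higher of 2 values on each array. These are the gene's own ethanol signal and the lowest signal of any probe well above background. The fold is a mean over the day 7 arrays and not a lower limit for each. Replicate 2 of Krtap5-2, at 0.97, lies below its mean ratio of 1.26. For Krtap5-2 and most genes so described it equals the measured fold.

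The Krtap4 genes of chromosome 11 were all called higher at day 7, with a median of 2.79. Krtap4-16 had ratios of 4.31 and 3.24, against 0.06 and -0.02 at day 2 and -0.09 and 0.17 at day 4, and was at least 13.7-fold higher (limma adjusted p = 0.00085). Krtap4-13 was at least 7.21-fold higher and Krtap4-7 at least 6.60-fold higher, with limma adjusted p = 0.00244 and 0.00683. Krtap4-2, the lowest of the 4, had 2.61 and 1.86 at day 7, against -0.01 and 0.14 at day 2 and -0.26 and -0.22 at day 4, and was at least 4.70-fold higher (limma adjusted p = 0.00293). In each of the 4 genes both day 7 ratios lay above every earlier one. All but Krtap4-16 passed the filter only through the cyclosporin A channel of day 7, a route that selects for a bright day 7 signal. Krtap9-1, on the same chromosome, stood well above background throughout, in cyclosporin A and in ethanol skin. It had ratios of 1.97 and 1.43 at day 7, against 0.12 and 0.27 at day 2 and 0.24 and 0.61 at day 4, a mean of 1.70 ± 0.17 (SE, n = 2; 3.25-fold, limma adjusted p = 0.00683). Without day 7 replicate 1 its adjusted p was 0.0603, and that of Krtap5-2 was 0.101. Without either replicate of day 4 that of Krtap5-2 was 0.0531.

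The high-sulfur class was mixed. Of its 9 tested genes, 5 were called higher at day 7, and the ratios ran from -0.27 to 2.33 with a median of 1.70. Krtap1-5, on chromosome 11, had ratios of 1.99 and 1.98 at day 7, against -0.04 and 0.07 at day 2 and 0.03 and 0.02 at day 4. The day 7 replicates differed by 0.01, and the signal was at least 3.88-fold higher (limma adjusted p = 0.000426). Krtap12-1 of chromosome 10 had 2.42 and 1.50 at day 7, against -0.06 to 0.07 before, and was at least 3.89-fold higher (limma adjusted p = 0.00954). Krtap13-1 of chromosome 16 had 2.81 and 1.86, against -0.10 to 0.06 before, and was at least 5.04-fold higher (limma adjusted p = 0.00482). Krtap26-1, on the same chromosome, had 2.39 and 1.55, against 0.07 to 0.37 before, and was at least 3.92-fold higher (limma adjusted p = 0.0079). In these genes both day 7 ratios lay above every earlier one, as in 9.19% of all genes, and the ethanol signal was not well above background on any array. Each of them passed the filter only through the cyclosporin A channel of day 7. That route itself selects for a bright day 7 signal.

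Subfamily Krtap3 of chromosome 11 held a gene that was called and a gene that was not. Krtap3-3 had ratios of 2.10 and 1.31 at day 7, against -0.09 and 0.15 at day 2 and 0.30 and 0.16 at day 4, and was at least 3.26-fold higher (limma adjusted p = 0.0115, and 0.055 without day 7 replicate 1). Krtap3-2 had 0.29 and -0.83 at day 7, against -0.33 and 0.14 at day 2 and 0.22 and 0.51 at day 4. Its ratios overlapped between days and took both signs at day 7. Its mean was -0.27 ± 0.26 (SE, n = 2; limma adjusted p = 0.574), and it was 0.16 with each array centred on its median. Krtap3-2 stood well above background on each array in cyclosporin A and in ethanol skin, with log2 signals from 9.33 to 10.68 in cyclosporin A skin and from 9.70 to 10.40 in ethanol skin.

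Subfamily Krtap13 also held a gene that was not called. Krtap13 had day 7 ratios of 0.02 and 0.12, against -0.06 and 0.11 at day 2 and 0.04 and 0.00 at day 4 (limma adjusted p = 0.748 at day 7). Its ethanol signal was not well above background on any array. In cyclosporin A skin its log2 signal was 6.75 and 6.82 at day 7, well above background on 1 of the 2 arrays. So near background, unlike Krtap3-2, a change in this gene may not be seen. Krtap14 and Krtap15, which were also described in the developing mammary gland, did not pass the test. Krtap14 had 2.00 and 0.43 at day 7, against -0.09 to 0.12 before (limma adjusted p = 0.103). Krtap15 had 0.46 and 0.59, against -0.03 to 0.04 before, with a mean of 0.53 ± 0.11 (SE, n = 2; limma adjusted p = 0.0585). Both genes had day 7 ratios above all 4 earlier ones. They passed the filter only through the cyclosporin A channel of day 7, a route that selects for a bright day 7 signal.

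The high glycine-tyrosine class, whose sheep relatives are proteins of the wool cortex, was represented by subfamilies Krtap6, Krtap16 and Krtap19 of chromosome 16. Of its 8 tested genes, 4 were called higher at day 7, and the median ratio was 1.93. Krtap6-1 had ratios of 4.19 and 2.45 at day 7, against -0.01 and 0.38 at day 2 and 0.20 and 0.69 at day 4, a mean of 3.32 ± 0.37 (SE, n = 2; 9.98-fold, limma adjusted p = 0.0115). Its ethanol signal was well above background on 1 of the 2 arrays of day 7. Krtap6-5 had 4.04 and 2.11, against -0.14 to 0.10 before, and was at least 8.43-fold higher (limma adjusted p = 0.0167). Krtap6-2 had 1.75 and 0.50, against 0.00 to 0.23 before, and did not pass (limma adjusted p = 0.0809). Krtap16-3 had 3.59 and 1.45 at day 7, against 0.21 and 0.04 at day 2 and 0.14 and 0.15 at day 4, a mean of 2.52 ± 0.42 (SE, n = 2; 5.73-fold, limma adjusted p = 0.0352). In each of these 4 genes both day 7 ratios were above the earlier ones, and replicate 1 was the higher of the pair by 1.25 or more. Krtap6-5 and Krtap6-2 passed the filter only through the cyclosporin A channel of day 7, a route that selects for a bright day 7 signal. Without either replicate of day 4, the limma adjusted p was 0.0906 for Krtap16-3 and 0.0531 for Krtap6-5, on the same day 7 ratios. Krtap16-3 also lost the call on the scanner software's processed signals, on the deposited ratios and with no filter (limma adjusted p = 0.0761, 0.0673 and 0.0515), and Krtap6-1 lost it on the processed signals (limma adjusted p = 0.0515).

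Krtap19 was the subfamily with the most genes among the named probes, 6, of which 4 were tested and 1 was called. Krtap19-9b had ratios of 3.28 and 1.23 at day 7, against 0.25 and 0.00 at day 2 and -0.06 and 0.13 at day 4, and was at least 4.76-fold higher (limma adjusted p = 0.0433, between 0.0523 and 0.102 in the 8 alternatives that ended the call). Krtap19-3 had 2.53 and 0.68 and Krtap19-4 had 2.13 and 0.03 at day 7 (limma adjusted p = 0.0766 and 0.198). Replicate 2 of Krtap19-4 was near 0, while replicate 1 stood far above the earlier values of -0.25 to -0.01. Krtap19-1 stood well above background throughout, in cyclosporin A and in ethanol skin, and had 1.43 and 0.64 at day 7, against 0.40 and -0.15 at day 2 and 0.07 and 0.66 at day 4. Its replicate 2 fell within the earlier values, and it did not pass (limma adjusted p = 0.0766). A second, dimmer probe of Krtap19-1 had a mean of 1.79 at day 7 (limma adjusted p = 0.16).

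Krtap31-1, which was left without a class, had ratios of 1.14 and 0.61 at day 7, against -0.17 to -0.01 before, and was at least 1.84-fold higher (limma adjusted p = 0.0359). Its 2 probes disagreed. The other probe had 0.17 and -0.07 at day 7, with a mean of 0.05 (limma adjusted p = 0.862), and the mean of both probes gave 0.47 (limma adjusted p = 0.134). The call of Krtap31-1 rests on the probe with the higher mean signal over all 6 arrays, and that mean takes in the day 7 signal under test, so the choice of probe was not independent of the change. The call was lost under 8 alternatives (limma adjusted p between 0.0501 and 0.862).

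Set side by side, the subfamilies with more than 1 tested gene had day 7 medians of 3.63 for Krtap5, 3.07 for Krtap6, 2.79 for Krtap4, 1.35 for Krtap19, 1.20 for Krtap13 and 0.72 for Krtap3. The range within Krtap3, from -0.27 to 1.70, and within Krtap13, from 0.07 to 2.33, was wider than the step between neighbouring medians in this order. At day 2 the medians of these 6 subfamilies lay between -0.03 and 0.10, and at day 4 between -0.08 and 0.30. Differences between subfamilies were not tested.

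**Figure D2:**
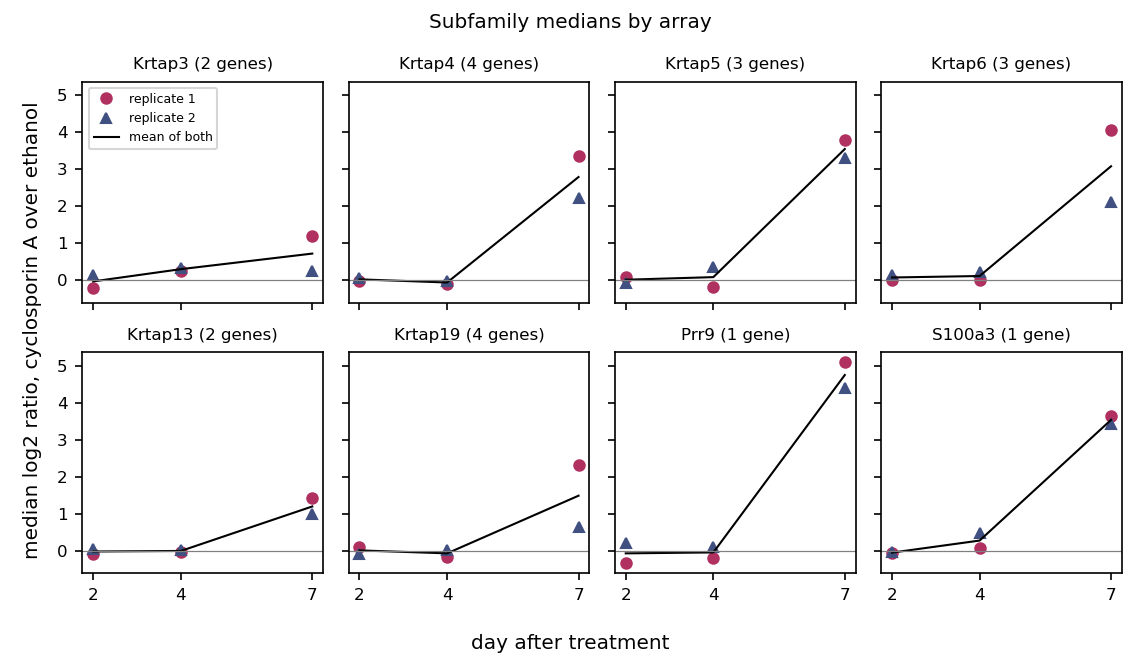
Median log2 ratio of cyclosporin A over ethanol skin (vertical axis) against day after treatment for the 6 subfamilies with more than 1 tested gene, Prr9 and S100a3, with a circle for replicate 1, a triangle for replicate 2 and a line through the mean of both. All panels stay near 0 at days 2 and 4, and at day 7 Krtap5 stands at 3.77 and 3.31 and Krtap3 at 1.20 and 0.24.

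The change in ratio between days was tested directly. From day 2, the ratio at day 7 was higher for 9 of 28 genes, against 0.264% of all genes. An unadjusted p under 0.05 in limma was held by 25 of 28, against 1394 of 22746 genes. The 9 were Prr9 with a difference of 4.81, Krtap5-4 with 3.83, Krtap4-16 with 3.75, Krtap5-1 with 3.61, S100a3 with 3.58, Krtap4-13 with 3.02, Krtap13-1 with 2.39, Krtap4-2 with 2.17 and Krtap1-5 with 1.97. By class, 5 of 8 ultra-high-sulfur, 2 of 9 high-sulfur and 0 of 8 high glycine-tyrosine genes were among them. The median differences of these classes were 2.84, 1.67 and 1.92. The largest of the high glycine-tyrosine class were 3.13 in Krtap6-1 and 2.98 in Krtap6-5, which did not pass (limma adjusted p = 0.159 and 0.207). Set against day 4, the ratio at day 7 was higher for 8 of 28 genes, against 0.202% of all genes, and these were the same genes without Krtap13-1 (limma adjusted p = 0.0584). Of the 9, Krtap4-13, Krtap13-1, Krtap4-2 and Krtap1-5 entered the test only through the cyclosporin A channel of day 7. That route selects for a bright day 7 signal. The shares of all genes were not split by route, and those called without an array are not given. The count of 9 depended on the arrays. It was 4 without either replicate of day 2 or either replicate of day 4, and 20 without day 7 replicate 2. The count of 8 was 3 without either replicate of day 4 and 19 without day 7 replicate 2.

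Each channel was also tested alone. Of the 28 genes, 15 passed the filter only through the cyclosporin A channel of day 7, and the counts below were not split by route. In the cyclosporin A channel, the log2 signal at day 7 minus that at day 2 had a median of 2.14 over the 28 genes, and 11 of 28 were called higher, against 0.954% of all genes. This count was 7 without day 2 replicate 2 and 24 without day 7 replicate 2. In the ethanol channel the same difference had a median of 0.23, and 0 of 28 were called by limma, against 0.0352% of all genes, while 7 of 28 had an unadjusted p under 0.05. The share of all genes with such a p in that channel is not given. S100a3 had the largest difference in the ethanol channel. Its log2 signal in ethanol skin was 10.13 and 9.46 at day 7, against 8.02 and 8.29 at day 2 and 8.07 and 7.76 at day 4, a difference from day 2 of 1.64 (limma adjusted p = 0.105). In cyclosporin A skin S100a3 had 13.77 and 12.89 at day 7, against 7.97 and 8.26 at day 2, a difference of 5.22 (limma adjusted p = 0.000104).

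Krtap5-1 had log2 signals of 12.57 and 12.10 in cyclosporin A skin at day 7, against 8.80 and 8.60 in ethanol skin, and between 8.06 and 8.38 in cyclosporin A skin and 7.92 and 8.25 in ethanol skin before. Krtap4-16 had 11.74 and 10.03 in cyclosporin A skin at day 7, against 7.43 and 6.79 in ethanol skin, where it was not well above background. In ethanol skin, 19 of the 28 genes stood well above background on 0 of the 6 arrays, and 6 did so on all 6. The cyclosporin A channel was well above background on both day 7 arrays for 27 of 28. Of the 32 probes, 30 exceeded background clearly in cyclosporin A skin on each day 7 array, against 7 and 10 in ethanol skin. On the 4 earlier arrays there were 13 to 16 in cyclosporin A skin and 9 in ethanol skin. The channels also differed over all probes. At day 7 the shares well above background were 59.9% and 65.6% in cyclosporin A skin, against 43.5% and 54.1% in ethanol skin. On the earlier arrays they were 66.2% to 68.8% and 45.6% to 56.5%.

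**Figure D3:**
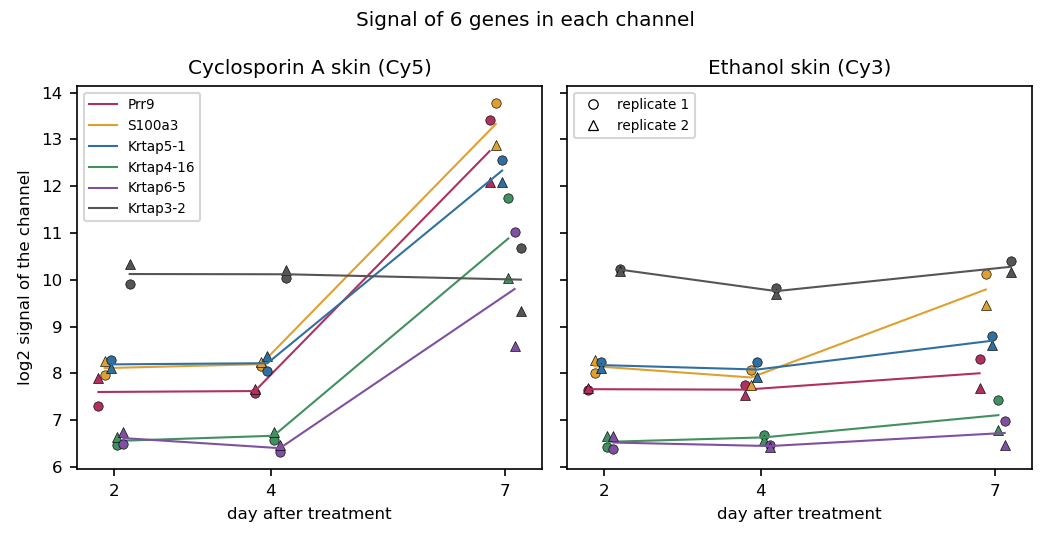
Log2 signal (vertical axis) of 6 genes against day after treatment, with the cyclosporin A channel left and the ethanol channel right, circles for replicate 1, triangles for replicate 2 and lines through their means, and points set slightly apart sideways. At day 7 Prr9 reaches 13.41 and 12.09 in cyclosporin A skin, against 8.32 and 7.69 in ethanol skin, and Krtap3-2 stays between 9.33 and 10.68 in cyclosporin A skin on all days.

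The replicates of day 7 differed in size. Over the 28 genes the median ratio was 2.48 on replicate 1 and 1.47 on replicate 2, and 26 of 28 genes were higher on replicate 1, as were 56.5% of all genes. The median gap between the replicates was 0.93, against 0.05 over all genes. A gap in this direction was not particular to the 28 genes. Among the lists described below it was 0.72 for hair shaft keratins, with 6 of 7 higher on replicate 1. It was 0.53 for epidermis, 0.42 for T cells and 0.36 for skeletal muscle. For hair regulators, inner root sheath, melanocyte, adipocyte and fibroblast markers it ran from -0.53 to -0.18. Within the 28 genes the median gap was 1.89 for the high glycine-tyrosine genes, where 8 of 8 were higher on replicate 1 by 0.79 to 2.13, 0.87 for the ultra-high-sulfur genes and 0.84 for the high-sulfur genes. Summed over the 28 genes, the cyclosporin A signal was 69800 on replicate 1 and 29700 on replicate 2 of day 7, against 7700 and 6080 in the ethanol channel of the same arrays. Without replicate 2 of day 7, Krtap19-3, Krtap19-4, Krtap14 and Krtap6-2 were called higher as well (limma adjusted p = 0.00475, 0.00562, 0.0119 and 0.0195).

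**Figure D4:**
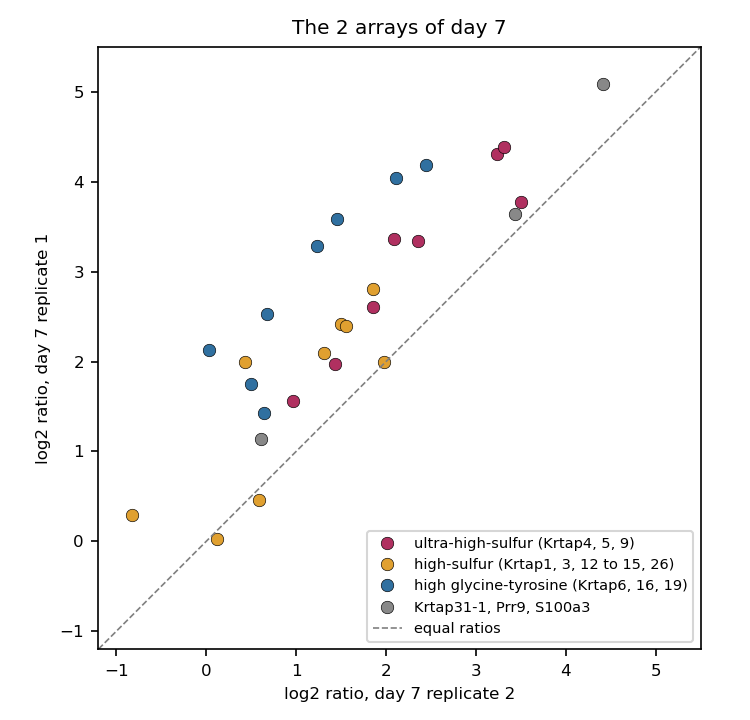
Log2 ratio of cyclosporin A over ethanol skin at day 7 on replicate 1 (vertical axis) against replicate 2 (horizontal axis), with 1 point per tested gene, coloured by class, and a dashed line at equal ratios. Of 28 points, 26 lie above the line, and the high glycine-tyrosine genes lie 0.79 to 2.13 above it.

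The hair shaft keratins, the filament proteins that the keratin-associated proteins cross-link, were higher at day 7 for 6 of 7 tested genes, with a median ratio of 3.62, against the 2.35% of all genes called higher. Krt31, Krt82 and Krt86 passed the filter only through the cyclosporin A channel of day 7, and 25.7% of all genes so passing were called higher. With no filter, 5 of 7 were called higher, against 1.49% of all genes. Krt82 lost its call there (limma adjusted p = 0.0532, against 0.0392 with the filter). Of 15 such keratins listed, 7 were found among the named probes. Krt33a had ratios of 6.38 and 5.66 at day 7, against 0.08 and 1.12 at day 2 and 0.95 and 0.89 at day 4 (limma adjusted p = 0.000163). Krt35, a keratin that appears early in shaft differentiation, had 4.00 and 3.99 at day 7, against 0.98 and 0.45 at day 2 and 1.64 and 1.78 at day 4. At day 4 Krt35 had an unadjusted p of 1.14e-05 and did not pass after adjustment (limma adjusted p = 0.129), while none of the keratin-associated protein genes had a mean above 0.45 on that day. Krt84 had 0.14 and 0.15 at day 7 and did not pass (limma adjusted p = 0.511).

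Of 7 listed regulators of hair keratin and matrix genes, 4 were higher at day 7, against 2.35% of all genes. They were Msx2, Lef1, Dlx3 and Hoxc13, and the median of the list was 0.93. At day 4 the unadjusted limma p was 0.000117 for Msx2, 0.00654 for Lef1 and 0.0126 for Hoxc13. It was above 0.05 for the other regulators, and none of the list was called at day 4. An unadjusted p under 0.05 at day 4 was held by 3403 of 22746 genes. Msx2, a homeobox protein made in hair matrix cells, had ratios of 2.39 and 2.82 at day 7, against 0.32 and 0.46 at day 2 and 1.07 and 1.09 at day 4 (limma adjusted p = 0.000385 at day 7 and 0.179 at day 4). Hoxc13, a homeobox factor known to activate hair keratin genes, had 0.68 and 1.18 at day 7, against 0.46 and 0.46 at day 2 and 0.53 and 0.44 at day 4 (limma adjusted p = 0.0268). For the 4 regulators called, the higher day 7 array was replicate 2. Of all 7 regulators, 2 were higher on replicate 1, Foxn1 and Gata3. Replicate 1 was the higher in 26 of the 28 keratin-associated protein genes. Foxn1, whose loss gives the nude mouse, Gata3 and Cux1 did not pass (limma adjusted p = 0.616, 0.531 and 0.168). The count of 4 was 1 without either replicate of day 4, 2 without day 7 replicate 1 and 1 without day 7 replicate 2, and Msx2 was called in each.

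Markers of other cells of the skin were read over the same days. Of all genes, 2.35% were called higher and 0.642% lower at day 7. An unadjusted limma p under 0.05 was held by 2202 of 22746 genes at day 2, 3403 at day 4 and 5026 at day 7. Of the inner root sheath, which moulds the growing shaft, 3 of 7 listed markers were found among the named probes, Krt25, Krt27 and Krt71. Of these, 3 of 3 were higher at day 7, with a median of 5.72. Their median was 2.04 at day 4, when the keratin-associated protein genes stood at 0.04, and Krt71 was the 1 gene called at day 4 (limma adjusted p = 0.0429). Their summed signal was 201000 and 170000 in cyclosporin A skin at day 7, against 3830 and 2590 in ethanol skin. Of 5 listed melanocyte markers, 4 were found among the named probes. Tyr did not pass the filter on dim probes and stood at 0.09 at day 7 with no filter. Of 3 tested melanocyte markers, 3 were higher at day 7 with a median of 2.37, and 0 were called without day 7 replicate 2. Their medians were 1.10 at day 2 and 1.56 at day 4, with 3 of 3 above 0 on each day and 0 called by limma, while 3 of 3 had an unadjusted p under 0.05 on each day. Of 6 epidermal markers 0 were called by limma, with a median of -0.48 that was 0.35 with each array centred on its median, and 3 had an unadjusted p under 0.05. Of 5 skeletal muscle markers, 2 were called lower, with a median of -0.72 that was 0.09 under median centring, where 0 were called. Of 4 adipocyte, 4 T cell and 4 fibroblast markers 0 were called by limma, with medians of 0.28, -0.30 and -0.19, and 1, 1 and 0 had an unadjusted p under 0.05. With each array centred on its median these medians were 1.06, 0.07 and 0.84, against 0.166 over all genes. Then 2 adipocyte and 2 fibroblast markers were called higher and 1 T cell marker lower. The share of all genes called at day 7 under this centring is not given. It was 38.3% at day 2 and 24.5% at day 4, so these calls may not be particular to the markers. The part of these cells in the ratios of the keratin-associated protein genes was not tested.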

How the data were processed

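The arrays measured RNA of mouse back skin, with cyclosporin A skin in Cy5 and ethanol skin in Cy3, per the labels. Replicate numbers come from the titles, although all descriptions read replicate 1 of 2. The deposited scanner files hold the intensity of each of 45018 spots, which were read with the software Agilent Feature Extraction, version 9.1, per the submitters' processing notes. In the deposited value table each entry is a log10 ratio, Cy5 over Cy3, equal to that in the scanner files (largest difference 0).

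Median intensities were background-corrected with normexp (offset 50) and loess-normalized array by array (limma 3.58.1, R 4.3.3), leaving out 1639 control spots and the 15 to 126 outlier spots of each array, of which 0 were of the genes described. No spot was saturated (0). Spots of a probe were averaged to 41174 probes, named by accession through a RefSeq table of GRCm38.p6 (22951 probes, with 67 more by symbol or synonym and 18156 without a name). A probe was kept if, on both arrays of some day, 1 channel or the other stood well above background (27932 probes), and the brightest probe stood for its gene, giving 22746 genes, 13471 with a symbol. A mean per day was fitted over all 6 arrays (3 residual and 3.763 prior degrees of freedom), and differences between days, and each channel alone, were tested in such fits. The SE pools the spread of all 3 days. The number of arrays limits the precision.

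The genes and lists were chosen with earlier results of these data known. Per-array values are given for Prr9, S100a3 and the genes with the highest and lowest day 7 ratio of each subfamily, and for others where a sentence turns on them. Protein sequences were not used here, so classes follow subfamily number (ultra-high-sulfur Krtap4, Krtap5 and Krtap9, high glycine-tyrosine Krtap6, Krtap16 and Krtap19, high-sulfur the rest) with Krtap31-1 left out, in place of the protein composition planned. Calls were recomputed with other signals, normalizations, filters and probe rules, with the replicate number as a block, and without each array. The fit was tested on simulated data.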

Additional observations from a re-analysis of the deposited data

Results flagged for a closer look

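For 9 genes the effect of cyclosporin A differed between day 7 and day 2 by limma's test of the difference of the log2 ratios (Benjamini-Hochberg adjusted over all genes). Prr9 differed by 4.81 (adjusted p = 0.00169), S100a3 by 3.58 (adjusted p = 0.00119) and Krtap5-1 by 3.61 (adjusted p = 0.00255), with both day 7 arrays above both day 2 arrays in each. Krtap1-5 differed by 1.97 (adjusted p = 0.00461), Krtap5-4 by 3.83 and Krtap4-16 by 3.75 (adjusted p = 0.00933 for both). Krtap4-13 differed by 3.02 (adjusted p = 0.0193), Krtap4-2 by 2.17 (adjusted p = 0.0342) and Krtap13-1 by 2.39 (adjusted p = 0.0439). The slides of day 2 and day 7 differ, and slide and day cannot be told apart. Krtap1-5, Krtap4-13, Krtap4-2 and Krtap13-1 entered the test only through the cyclosporin A channel of day 7, a route that selects for a bright day 7 signal. Without either replicate of day 2, or either of day 4, 4 genes passed this test, and without day 7 replicate 2 there were 20.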

How the results depend on the processing

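Of the 20 genes called higher at day 7, 12 were called in every alternative that tested them, and 8 lost the call in at least 1. With each array centred on its median the medians of all genes shifted to 0.391, 0.269 and 0.166 at days 2, 4 and 7. Of all genes 38.3% were then called at day 2 and 24.5% at day 4, and the share at day 7 is not given. The genes' median then was -0.30 at day 2 and -0.23 at day 4, 2 were called at day 2, 4 at day 4, 21 at day 7 and 1 in the ethanol channel, Krtap13 stood at -0.23 and Krtap3-2 at 0.16 at day 7, and 26 of 28 genes lay above the median of all genes at day 7, by a median of 1.86. On the scanner software's processed signals the medians were -0.32 at day 2, -0.12 at day 4 and 3.85 at day 7, and 19 genes were called in the cyclosporin A channel. The deposited ratios gave 0.15 at day 4, 3.85 at day 7 and 13 calls between days 7 and 4. Over the 6 genes that stood well above background on every array in cyclosporin A and in ethanol skin, the day 4 median was 0.32, and 4 were called at day 7, 3 between days 7 and 2, 3 between days 7 and 4 and 4 in the cyclosporin A channel, since fewer genes were tested. For the other moves the cause was not tested.

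Without each array in turn, the median ran from -0.01 to 0.04 at day 2, from -0.01 to 0.12 at day 4 and from 1.47 to 2.48 at day 7. Calls ran from 0 to 0 at days 2 and 4 and between them, from 15 to 23 at day 7, from 4 to 20 between days 7 and 2, from 3 to 19 between days 7 and 4, from 7 to 24 in the cyclosporin A channel and from 0 to 1 in the ethanol channel. Krtap3-2 at day 7 ran from -0.83 without replicate 1 of that day to 0.29 without replicate 2. A day left with 1 array was assumed to vary like the other days. The share of all genes called in each of these refits is not given, so a change in a count may not be particular to the genes described. With the replicate number as a block, 18 genes were called at day 7, without Krtap19-9b (adjusted p = 0.0541) and Krtap31-1 (adjusted p = 0.0629), and 2 regulators in place of 4. The numbers share no known origin, and the deviations of same-numbered arrays correlated at 0.008, -0.278 and -0.023, so the pairing was not used. Dim ethanol signals limit the ratios, since 19 of 28 genes were not well above background there on any array.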
